A study of Mus musculus with 4 samples.

Results

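The genes described here make microRNAs and carry out silencing by them: *Drosha*, *Dgcr8*, *Xpo5*, *Dicer1*, the 4 Argonaute genes *Eif2c1*, *Eif2c2*, *Eif2c3* and *Eif2c4* (*Ago1* to *Ago4* in newer nomenclature), and the GW182 genes *Tnrc6a* and *Tnrc6b*. They were chosen by name and not by their values, though with earlier results of these data known. All 10 were found among the 22483 loci of the deposited table that carry a gene name. *Dgcr8* shares its locus with *Mir1306*. *Tnrc6b* has 2 entries over identical coordinates, and the entry with the higher mean was used. RNA-Seq was performed on poly(A) RNA from the mammary gland of 2 virgin wild-type mice (miR-21+/+) and 2 virgin mice lacking miR-21 (miR-21-/-). All 4 mice were 2 months old and on a mixed background labelled 129SV::FVB/N::C57BL/6. No sorting of cells is described, so each value averages epithelium, fat, vessels and immune cells. In such tissue a change in cell number and a change in RNA per cell cannot be told apart. The authors combined the mice of a genotype into a single FPKM value (fragments normalised to the mapped total and to exon length). No spread between mice can be seen, no test between genotypes was run, and a small difference below can be neither distinguished from 0 nor dismissed. Differences are plain log2 ratios, miR-21-/- over miR-21+/+, without a pseudocount.

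A microRNA is transcribed within a long precursor. In the nucleus the Microprocessor, made of the RNase DROSHA and its RNA-binding partner DGCR8, cuts out a hairpin. Exportin-5 carries the hairpin to the cytoplasm, where DICER1 trims it to a short duplex. One strand is loaded into an Argonaute protein, which pairs with messenger RNAs mainly through the seed (bases 2 to 8 of the microRNA) and recruits GW182 proteins, encoded by the *Tnrc6* genes, and through them deadenylases and decapping enzymes. Loss of *Dicer1* or *Dgcr8* blocks most microRNAs at once, whereas the mice studied here lack a single, abundant one.

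The sequences below show the 5p arm of the microRNA that was removed and both arms of the one that lies inside a gene of its own processing machinery, with seeds in capitals. They are RefSeq mature sequences from the GRCm38.p6 tables.
mmu-miR-21a-5p: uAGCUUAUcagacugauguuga
mmu-miR-1306-5p: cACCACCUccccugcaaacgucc
mmu-miR-1306-3p: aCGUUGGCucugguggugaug

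A transcript that pairs with the miR-21 seed reads ATAAGCT (a 7mer-m8 site), ATAAGCTA (an 8mer site) or TAAGCTA (a 7mer-A1 site, pairing with bases 2 to 7 and ending in A). An 8mer contains both shorter motifs and was counted once. These letters were sought in the transcript sequence of the longest 3′ UTR that the annotation gives a gene. They match the 5p arm of miR-21, and sites for its 3p arm were not sought. *Eif2c1*, *Eif2c2*, *Eif2c4*, *Tnrc6a* and *Tnrc6b* held a site. Each site is shown in 30 bases of mm9, read 5′ to 3′ along the transcript with the site in capitals. These are places where the missing 5p arm could pair with the mRNAs of its own effectors.
Eif2c1, 7mer-A1: cagttgggtttTAAGCTAgaatgaaaagca
Eif2c2, 7mer-m8: ttgccaaacctATAAGCTgctcactgagag
Eif2c4, 7mer-A1: gaggtactttcTAAGCTAttaaggaagggt
Tnrc6a, 7mer-A1: cttgccaggtgTAAGCTAatgttggacacc
Tnrc6b, first 7mer-m8: gttcttccatcATAAGCTtaaagggaaaaa
Tnrc6b, second 7mer-m8: ctaatgtacaaATAAGCTgaaaagttgcat

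All of these sites lie in the last exon. In mm9 the *Eif2c2* window is chr15:72937087-72937116 on the minus strand, and its site starts at base 233 of a 3′ UTR of 5283 nt. The *Eif2c1* window is chr4:126114237-126114266 and the *Eif2c4* window chr4:126166949-126166978, both on the minus strand. The *Tnrc6a* window is chr7:130338539-130338568 on the plus strand. The *Tnrc6b* windows are chr15:80762676-80762705 and chr15:80771095-80771124, on the plus strand, in a 3′ UTR of 11610 nt. No 8mer was found in any of the 10 genes. Long 3′ UTRs held matches more often. A site of any of these types was found in 9.59% of 19915 genes with an annotated 3′ UTR, and in 24.2% of the 4505 genes with 2000 nt or more. How far length, rather than base content, sets these shares was not tested, nor was their difference from the 10 genes. Of the 10 genes, 7 had 3′ UTRs of 2000 nt or more, and the 5 with a site were among these 7. The annotated 3′ UTRs of *Xpo5* (28 nt) and *Drosha* (168 nt) are so short that the search says little about them. *Dicer1* (3851 nt) and *Eif2c3* (12742 nt) have long ones in which these letters were not found. A match is a description of the sequence and not evidence of pairing.

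The levels of the 10 genes were close in both genotypes, as the plot of their FPKM values shows. Their summed FPKM was 88.8 in wild-type and 90.9 in miR-21-/- glands. As deposited, the miR-21-/- value was above the miR-21+/+ value for 7 genes and below it for 3, but this split followed the scaling: it was 10 and 0 with equal sums over named loci, and 0 and 10 with equal sums over all loci. The log2 ratios ran from −0.09 for *Eif2c2* to 0.15 for *Dicer1*, with a median of 0.02. Across the 13565 named loci above 1 FPKM in at least one genotype the median was −0.03 and the interquartile range ran from −0.18 to 0.11, which held 8 of the 10 genes. The largest ratio, that of *Dicer1*, was matched or exceeded in size by 50.2% of these loci.

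**Figure D1:**
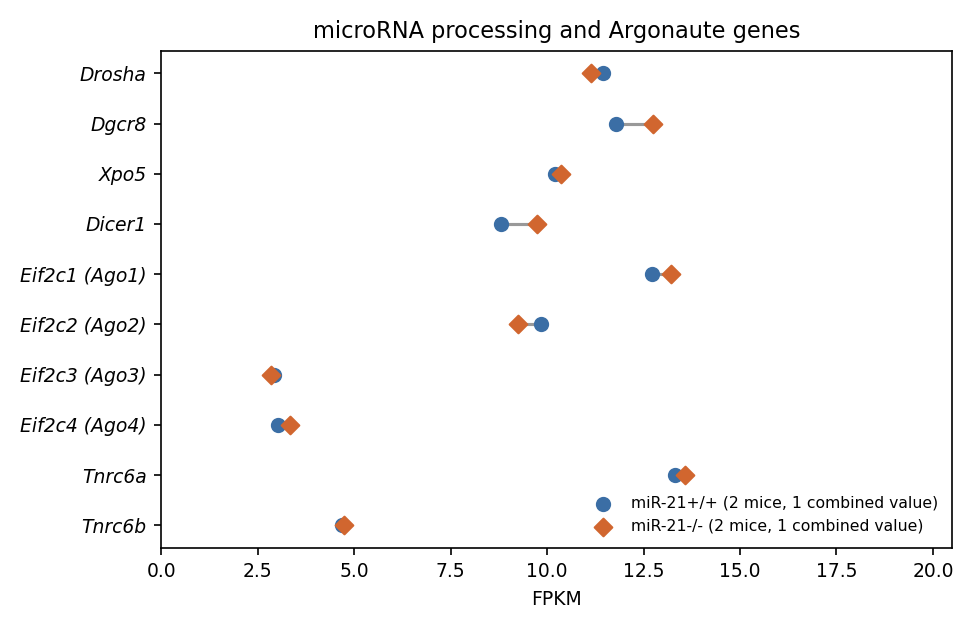
FPKM (x axis) of each gene in miR-21+/+ (circles) and miR-21-/- (diamonds) mammary glands, each point being the authors' single value for 2 mice, joined by a line. *Tnrc6a* and *Eif2c1* lie highest, *Eif2c3* and *Eif2c4* lowest, and no pair of points is more than 10.6% apart.

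None of the 10 genes reached 1.5-fold in either direction, where 11.9% of the named loci above 1 FPKM did, 5.53% higher and 6.37% lower. None reached a log2 ratio of 0.32 in size, the lower limit tried, against 25.5% of the same loci. The background depends on level. Between 5 and 20 FPKM, the range of 7 of the genes, 17.2% of loci reached a log2 ratio of 0.32 in size. Between 1 and 5 FPKM, the range of *Eif2c3*, *Eif2c4* and *Tnrc6b*, it was 38.8%. The difference between these shares and the count of the 10 genes was not tested. Scaling both columns to equal sums over all loci moves every log2 ratio by −0.63, which places 6 of the 10 genes at 1.5-fold or more lower, near the 65.4% of named loci above 1 FPKM that it places there.

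**Figure D2:**
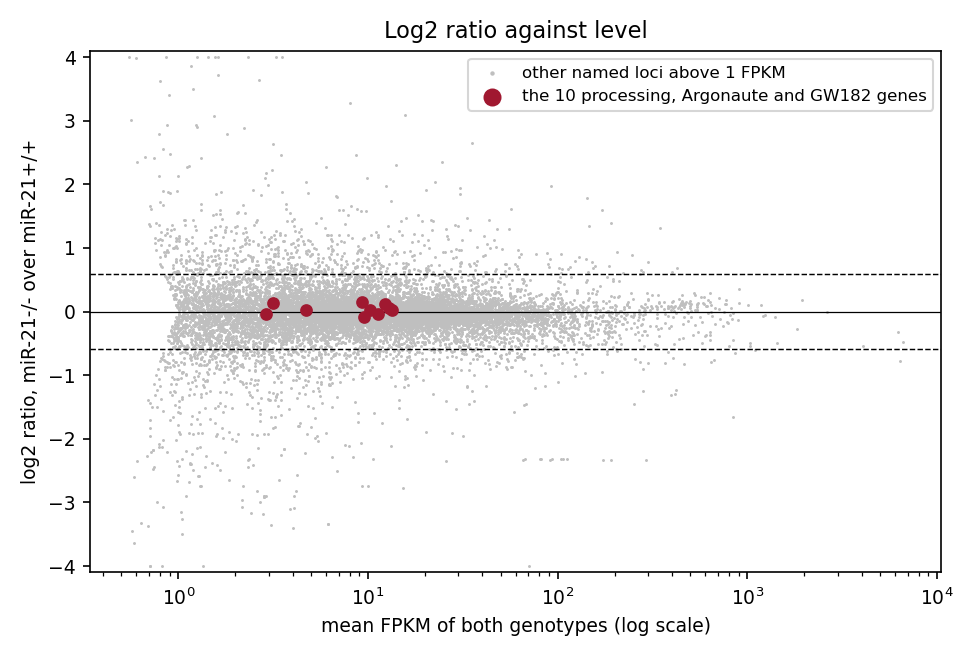
Log2 ratio of miR-21-/- over miR-21+/+ (y axis) against mean FPKM of both genotypes (x axis, log scale) for named loci above 1 FPKM (grey) and the 10 genes (red). Dashed lines mark 1.5-fold, loci beyond 4 log2 units are drawn at that edge, and loci listed at 0 in a genotype are not drawn. The red points lie between −0.09 and 0.15, within the dense band of loci of similar level.

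The Microprocessor genes were expressed at nearly equal levels. *Drosha*, the nuclear RNase (chr15:12754570-12865084, mm9), was at 11.5 FPKM in miR-21+/+ and 11.1 FPKM in miR-21-/- glands, a log2 ratio of −0.04. *Dgcr8*, which holds the hairpin for the cut (chr16:18248900-18289336), was at 11.8 and 12.7 FPKM, a log2 ratio of 0.11. The ratio of *Drosha* to *Dgcr8*, which no scaling of the columns can change, was 0.972 in wild-type and 0.874 in miR-21-/- glands. The transcripts of the partners thus had similar FPKM in both genotypes, which describes RNA and not the proteins.

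The *Dgcr8* transcript carries the *Mir1306* hairpin, whose mature products are printed above. Matched by its sequence, the hairpin of 79 nt lies at chr16:18284332-18284410 on the minus strand of mm9, wholly within coding sequence, in exon 2 of the 14-exon transcript. Mature microRNAs carry no poly(A) tail and escape this kind of library, and the table gives a single value for both names. The locus also reaches into *Trmt2a* on the opposite strand, and nothing in the sources used here states that strand was used, so reads there may not be separable.

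*Xpo5*, which encodes the export receptor of the hairpins (chr17:46339711-46380773), was at 10.2 FPKM in miR-21+/+ and 10.4 FPKM in miR-21-/- glands, a log2 ratio of 0.02. *Ran*, the GTPase that drives its transport, was at 61.3 and 54.2 FPKM, which was 6.00 and 5.23 times the level of *Xpo5*.

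*Dicer1*, the cytoplasmic RNase (chr12:105925914-105990162), had the largest ratio of the group. It was at 8.81 FPKM in miR-21+/+ and 9.74 FPKM in miR-21-/- glands, a log2 ratio of 0.15 or 10.6%. Its RNA-binding partner *Tarbp2* was at 8.93 FPKM in both. The FPKM ratio of *Dicer1* to *Tarbp2* was 0.987 in wild-type and 1.09 in miR-21-/- glands, again a value for RNA alone. The other double-stranded RNA-binding partner, *Prkra*, was at 13.4 and 12.5 FPKM, a log2 ratio of −0.10.

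The Argonaute genes fell into an abundant and a scarce pair. *Eif2c1* (*Ago1*, chr4:126112035-126145864) was at 12.7 FPKM in miR-21+/+ and 13.2 FPKM in miR-21-/- glands, a log2 ratio of 0.06. *Eif2c2* (chr15:72925975-73015377), which encodes AGO2, the main Argonaute that can itself cleave a fully paired target, was at 9.84 and 9.26 FPKM, a log2 ratio of −0.09. It was the most negative value of the 10. *Eif2c2* has a 7mer-m8 site, and a link between the site and this value was not tested. *Eif2c4* (*Ago4*, chr4:126166749-126210702) was at 3.01 and 3.33 FPKM, a log2 ratio of 0.14. *Eif2c3* (*Ago3*, chr4:126009809-126106786) was at 2.92 and 2.85 FPKM, a log2 ratio of −0.04. The last 2 lie too close together for their order to be read, at a ratio of 1.03 in wild-type and 1.17 in miR-21-/- glands.

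*Eif2c1*, *Eif2c3* and *Eif2c4* form a cluster on chromosome 4, all on the minus strand. The locus of *Eif2c3* ends 5248 bp before that of *Eif2c1* begins, and 20884 bp separate *Eif2c1* from *Eif2c4*, with no other named locus between them. The level of *Eif2c1* was 4.35 times that of *Eif2c3* in miR-21+/+ and 4.63 times in miR-21-/- glands, so the levels of these neighbours differed in both genotypes. The loci of *Eif2c2* and *Eif2c3* overlap *Chrac1* and *Gm17553* on the opposite strand, and that of *Eif2c4* holds the pseudogenes *Gm12935* (opposite strand) and *Gm12934* (same strand), so here too reads may not be separable.

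Summed over the 4 genes, Argonaute transcripts stood at 28.5 FPKM in wild-type and 28.6 FPKM in miR-21-/- glands, a log2 ratio of 0.01. *Eif2c1* supplied 44.6% of wild-type and 46.1% of miR-21-/- Argonaute transcripts. *Eif2c2* supplied 34.5% and 32.3%, the largest shift of the 4, at −2.23 percentage points. *Eif2c3* supplied 10.3% and 9.95%, and *Eif2c4* 10.6% and 11.6%. These shares do not depend on how the columns are scaled, and each stayed within 3 percentage points. The sum of Argonaute transcripts was 3.23 times that of *Dicer1* in miR-21+/+ and 2.94 times in miR-21-/- glands.

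**Figure D3:**
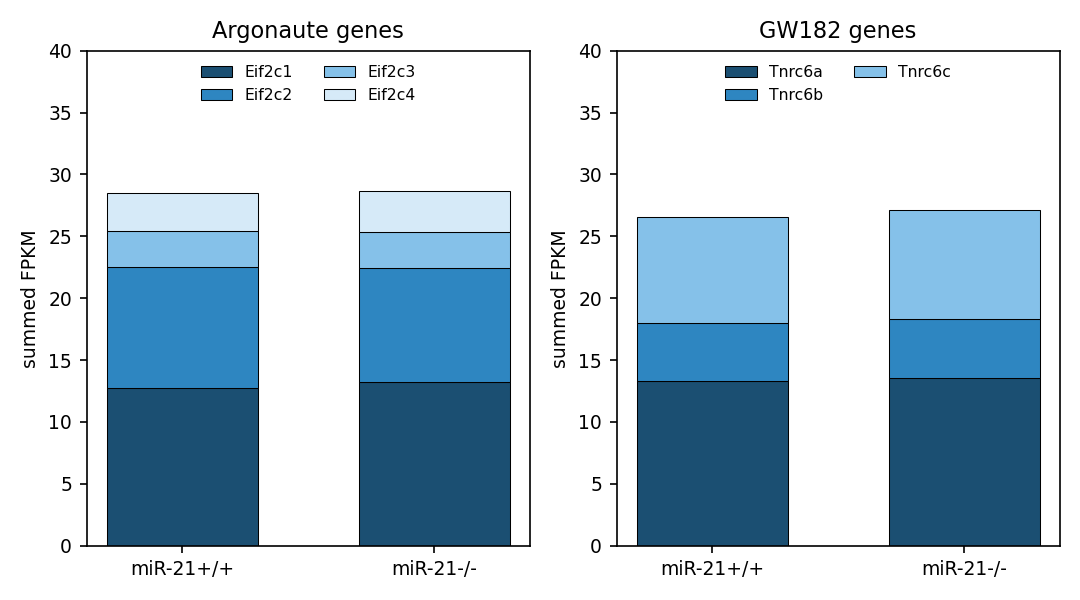
Summed FPKM (y axis, from 0) of the Argonaute genes (left) and the GW182 genes (right) in each genotype, with each segment the authors' value for a gene. *Tnrc6b* is drawn by its entry of higher mean alone. The Argonaute bars reach 28.5 and 28.6 FPKM and the GW182 bars 26.6 and 27.2 FPKM, with like segments in both genotypes.

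The GW182 genes encode the scaffold proteins that link Argonaute to mRNA decay. *Tnrc6a* (chr7:130267399-130338810) had the highest level of the 10 genes, at 13.3 FPKM in miR-21+/+ and 13.6 FPKM in miR-21-/- glands, a log2 ratio of 0.03. *Tnrc6b* (chr15:80541743-80771516) was at 4.68 and 4.74 FPKM, a log2 ratio of 0.02. Its second entry was at 2.57 and 2.47 FPKM, a log2 ratio of −0.06, and when both entries were summed *Tnrc6b* turned to the lower side and the split became 6 higher and 4 lower. *Tnrc6b* holds 2 matches to the miR-21 seed. The level of the entry used was 1.23% higher in glands without the microRNA, the second entry was lower, and a link between the matches and these values was not tested.

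The third GW182 gene, *Tnrc6c*, was at 8.60 and 8.83 FPKM. In the authors' table its row and that of *Tnrc6b* carry a mark that their program's test failed. The 3 genes together summed to 26.6 FPKM in miR-21+/+ and 27.2 FPKM in miR-21-/- glands. *Tnrc6a* supplied 50.1% and 50.0% of this, *Tnrc6c* 32.3% and 32.5%, and *Tnrc6b* 17.6% and 17.5%. Argonaute transcripts summed to 1.07 times the GW182 transcripts in miR-21+/+ and 1.05 times in miR-21-/- glands. These sums, shares and ratios leave out the second *Tnrc6b* entry, at 2.57 and 2.47 FPKM. Adding it would raise the *Tnrc6b* share and put the GW182 sum above the Argonaute sum in both genotypes, so the order of the sums cannot be read. Each GW182 share was within 1 percentage point between genotypes.

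Ratios of the genes in which a miR-21 site was or was not found are given as values only. The 5 genes with a site had log2 ratios from −0.09 to 0.14 with a median of 0.03, and the 5 without had ratios from −0.04 to 0.15 with a median of 0.02. The ranges overlap almost wholly. With 5 genes in each set and no spread between mice, no test of this difference was made.

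The order of the 10 genes by level was the same in both genotypes except for a single exchange of neighbours. From highest to lowest in miR-21+/+ glands it ran *Tnrc6a*, *Eif2c1*, *Dgcr8*, *Drosha*, *Xpo5*, *Eif2c2*, *Dicer1*, *Tnrc6b*, *Eif2c4*, *Eif2c3*. The exchange was between *Eif2c2* and *Dicer1*, whose ratio was 1.12 in wild-type and 0.95 in miR-21-/- glands, too close for their order to be read in either. Most of the genes were of middling abundance: the median of the 10 was 10.02 FPKM in miR-21+/+ and 10.05 FPKM in miR-21-/- glands, and that of all named loci above 1 FPKM 9.16 and 9.15 FPKM. *Tnrc6a* exceeded 62.3% of these loci in miR-21+/+ glands, while *Eif2c3* exceeded only 18.2%. The rows of *Dicer1*, *Eif2c3*, *Eif2c4* and *Tnrc6b* carry a mark in the authors' table that their program's test failed. That mark stood on 8.6% of the named loci above 1 FPKM, and the FPKM values of these 4 genes were used as listed. It also stood on the rows of *Tnrc6c*, *Fmr1* and *Ddx6*, whose values were likewise used as listed.

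Beyond the 10 genes, 70 others of the microRNA pathway were listed by role, and 61 exceeded 1 FPKM. As deposited, 30 of these were higher and 31 lower, with a median of 0.00. None reached 1.5-fold, against 11.9% of the named loci above 1 FPKM. At a log2 ratio of 0.32 or more in size 3 were higher and none lower, against 11.1% and 14.4% of the named loci above 1 FPKM. These shares cover all levels, and the background depends on level. Many of the 61 were above 20 FPKM, a range for which no share is given here. The difference between the list and these shares was not tested. The 3 higher genes were *Hsp90aa1* (118 and 166 FPKM, log2 ratio 0.49), *Fmr1* (24.4 and 32.9 FPKM, 0.43) and *Hspa8* (793 and 1013 FPKM, 0.35). *Hsp90aa1* and *Fmr1* are named because their values had been seen. *Hsp90aa1* and *Hspa8* encode chaperones that load the duplex into Argonaute and have many other clients. *Fmr1* encodes an RNA-binding protein that can associate with Argonaute, and its row carries the mark of a failed test.

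Among 10 cofactors of the Microprocessor, none reached a log2 ratio of 0.32 in size, against 25.5% of the named loci above 1 FPKM. Most of the 10 were above 20 FPKM, where no share is given here, and the difference was not tested. The helicase genes *Ddx5* and *Ddx17* were the most abundant, at 410 and 411 FPKM (log2 ratio 0.00) and at 131 and 137 FPKM (0.06). *Ddx5* was thus present at over 30 times the FPKM of *Drosha*. Among 4 nuclear export genes the ratios ran from −0.18 to 0.14, with *Xpo1* at 29.5 and 27.2 FPKM. Among the 12 Dicer partners and loading factors the median was −0.02, and *Hsp90ab1* was at 480 and 576 FPKM (0.26). *Hspa8* shares its locus with another name, and such genes, with near-identical copies in the genome, have uncertain values.

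Among 27 silencing effectors, which include deadenylases and decapping factors, the ratios ran from −0.18 to 0.43 with a median of 0.01. *Pabpc1*, the poly(A)-binding protein that GW182 contacts, was at 231 and 266 FPKM (0.20), and the helicase gene *Ddx6* at 52.9 and 55.7 FPKM (0.08). Of 11 genes for tailing and turnover of microRNAs, 8 exceeded 1 FPKM, 1 of them higher and 7 lower, with a median of −0.12. None of the 8 was at 0.32 or more in size, against 25.5% of the named loci above 1 FPKM, a difference that was not tested. The split of this list, too, depends on scaling. The nuclease gene *Xrn2* was at 21.98 and 19.5 FPKM and the uridylyltransferase gene *Zcchc6* at 18.1 and 18.2 FPKM. *Lin28a* and *Lin28b*, which block let-7 maturation in embryonic cells, were under 0.01 FPKM in both genotypes. None of 6 genes of the germline PIWI pathway, a related small RNA system, exceeded 1 FPKM, and the most abundant, *Piwil2* and *Ddx4*, were at 0.0919 and 0.268 FPKM and at 0.144 and 0.143 FPKM. Each of the 4 Argonaute genes was above every listed gene of that pathway.

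**Figure D4:**
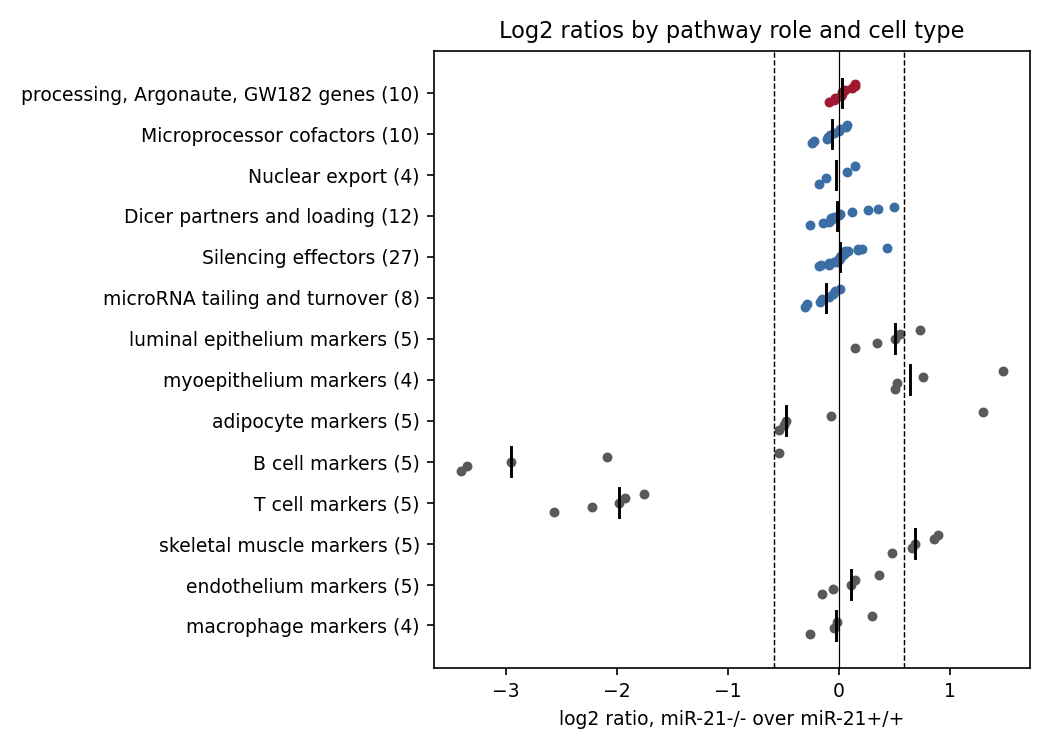
Log2 ratio of miR-21-/- over miR-21+/+ (x axis) for the 10 genes (red), other microRNA pathway genes by role (blue) and cell type markers (grey), with 1 point per gene above 1 FPKM, the number in brackets and a black bar at the median. Dashed lines mark 1.5-fold: every pathway gene lies between them, while B cell, T cell, muscle and epithelial markers and the adipocyte marker *Lep* extend beyond.

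Cell type markers served to check the tissue, and several of their lists differed more between genotypes than the pathway genes did. All 5 luminal markers and all 4 myoepithelial markers were present. As deposited, all were higher in miR-21-/- glands, with sums of 578 and 780 FPKM and of 82.1 and 147 FPKM. The myoepithelial sum includes *Krt14* (22.9 and 38.7 FPKM), whose locus is merged with *Krt16*. Directions depend on scaling here too. The shift of −0.63 from equal sums over all loci would turn *Krt18*, *Krt19*, *Epcam*, *Cdh1*, *Krt5*, *Krt17* and the muscle marker *Mylpf* lower. It would do the same to the endothelial and macrophage sums. The 5 adipocyte markers summed to 10251 and 7471 FPKM, most of it *Fabp4* (7677 and 5523 FPKM), while *Lep* went the other way, at 27.7 and 67.9 FPKM. The 5 skeletal muscle markers summed to 972 and 1580 FPKM, and the 5 T cell markers to 34.6 and 8.18 FPKM. The 5 B cell markers summed to 99.4 and 52.9 FPKM, or without *Cd79a*, whose locus is merged with another gene, to 29.1 and 4.62 FPKM. No marker in the table was at 0. The 5 endothelial markers summed to 130 and 139 FPKM. The 4 macrophage markers found summed to 380 and 383 FPKM, or without *Cd68*, whose locus is merged with other genes, to 126 and 132 FPKM, with *Emr1* at a log2 ratio of −0.26 and *Mrc1* at 0.30. The 10 genes are expressed in most cell types, and the part of these tissue differences in their values was not tested. The locus of *Mir21* and its host gene *Vmp1* was at 42.5 FPKM in miR-21+/+ and 68.2 FPKM in miR-21-/- glands. That value covers the whole locus, does not separate the host transcript from any other made there, and does not by itself check the genotypes.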

How the data were processed

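The labels give 2 mice per genotype. Poly(A) RNA was sequenced as single-end reads, which the authors aligned to mm9 with TopHat. The authors deposited a Cuffdiff table of FPKM values, 1 per genotype and locus, that combines both mice. Program versions and the gene annotation are not given in the sources used here. The depth of the libraries is unknown, and low FPKM values showed no steps of whole reads. The table's other numeric columns hold the authors' log2 fold change, test statistic, p-value and q-value, and were not used.

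Log2 ratios were recomputed from FPKM. A gene with several rows was represented by that of highest mean FPKM. A locus counted as past the limit at 1.5-fold or more and above 1 FPKM in at least one genotype. The counting was run on simulated data with planted changes well past the limit, which checks the code and says nothing about these data. Coordinates count from 1, since 7407 annotated gene starts matched after adding 1 and 426 as printed. Pathway and marker lists came from general knowledge. The genes and lists were chosen with earlier results of these data known. Genes named were all 10, the *Mir21* locus, pathway genes at 1.5-fold or more, the 2 most abundant of each role, and *Tnrc6c*, *Tarbp2*, *Prkra*, *Lin28a* and *Lin28b*. *Hsp90aa1*, *Fmr1* and the markers singled out were named after their values were seen. 3′ UTRs came from GENCODE M1 transcripts, with windows checked against the mm9 genome. Python 3.11.15, numpy 2.4.6, pandas 2.3.3 and matplotlib 3.10.9 were used. Alternatives were pseudocounts of 0.1 and 1, other scalings, log2 limits of 0.32 and 1, FPKM minimums of 5 and none, and summing rows.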

Additional observations from a re-analysis of the deposited data

How the results depend on the processing

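No paired analysis was possible because each genotype has 1 combined value, which also kept single mice from being left out. The sequencing depth of the libraries, and with it the counting error of low values such as those of *Eif2c3*, is unknown. A log2 value was said to move at a change of 0.1 or more. With equal sums over all loci, which shifts every ratio by −0.63, the median of the 10 genes was −0.61 and the Argonaute sum −0.62, and 6 of the 10 genes and 45 of the other pathway genes were at 1.5-fold or more lower, as were 65.4% of named loci above 1 FPKM. Unnamed loci enter these sums and not the genes described. The other scalings shift every ratio by 0.029, 0.0616 or 0.0988, under the limit of 0.1, so by design no ratio could count as moved there. That limit is also as large as most of the ratios. With equal sums over named loci *Drosha* went from −0.04 to 0.06, *Eif2c2* from −0.09 to 0.01 and *Eif2c3* from −0.04 to 0.06. Under the remaining alternatives no value of the 10 genes moved. Apart from equal sums over all loci, none of the 10 reached the fold limit used. Of the other pathway genes, 1 was at 1.5-fold or more higher with equal sums over named loci (a shift of 0.10), 1 with no FPKM minimum, and 3 at a log2 limit of 0.32. With the columns scaled over named loci under 1000 FPKM, chosen after seeing the data, 9 of the 10 genes were higher. Among rows without a failed mark, also chosen later, 6 of the 10 remained, from −0.09 to 0.11.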
